A study of Mus musculus with 6 samples.

Results

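The genes of 4 steroid hormone receptors and 5 genes that steroid hormones induce were followed in subcutaneous pancreatic tumours of lactating and control mice. They were chosen by name, 9 of the 18194 genes that had a probe set with a single gene symbol. All of their probe sets were taken, 28 of 45101. The receptors were Esr1, Pgr, Nr3c1 and Nr3c2, and the target genes were Fkbp5, Tsc22d3, Greb1, Zbtb16 and Sgk1. KPC1199, the line that gave rise to every tumour, comes from pancreatic ductal adenocarcinoma of the mouse and was placed under the skin of the back. Mice of the lactation group received the cells in pregnancy or early nursing, the control group consisted of mice labelled only as control, and tumours of both groups were taken 20 days after injection at the same age. Each group held 3 tumours, called biological replicates in the labels, with a single 3' Affymetrix array for each. Mouse strain, hormone levels and the exact reproductive stage at injection are not given in the labels, so pregnancy and nursing cannot be told apart, and all the tumours come from a single cell line.

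Steroid receptors are transcription factors that bind a hormone in the cell and then bind DNA. Esr1 encodes oestrogen receptor alpha, Pgr the progesterone receptor, Nr3c1 the glucocorticoid receptor and Nr3c2 the mineralocorticoid receptor, which also binds glucocorticoids. Glucocorticoids, adrenal hormones that rise with stress and support milk production in the mammary gland, act through Nr3c1 on Fkbp5, Tsc22d3, Zbtb16 and Sgk1, while Greb1 is a target of oestrogen. The glucocorticoid, mineralocorticoid and progesterone receptors recognise the same kind of inverted repeat of AGAACA, and the oestrogen receptor recognises a repeat of GGTCA.

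The promoter windows of Sgk1 and Tsc22d3 are shown because, among the 7 members whose windows were counted here, only these genes held the AGAACA hexamer. Sequences are from RefSeq on GRCm38.p6, each running from 250 bases before a transcript start to 50 bases after it, and capitals mark AGAACA or its reverse complement TGTTCT. The first is at chr10:21993640-21993939 on the plus strand and the second at chrX:140600473-140600772 on the minus strand, each in the gene's own direction.
Sgk1: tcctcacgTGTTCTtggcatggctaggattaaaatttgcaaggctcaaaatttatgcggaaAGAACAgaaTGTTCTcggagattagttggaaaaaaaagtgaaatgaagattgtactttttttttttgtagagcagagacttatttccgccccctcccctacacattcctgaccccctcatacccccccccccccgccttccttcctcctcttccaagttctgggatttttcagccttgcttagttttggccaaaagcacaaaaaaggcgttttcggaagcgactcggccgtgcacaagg
Tsc22d3: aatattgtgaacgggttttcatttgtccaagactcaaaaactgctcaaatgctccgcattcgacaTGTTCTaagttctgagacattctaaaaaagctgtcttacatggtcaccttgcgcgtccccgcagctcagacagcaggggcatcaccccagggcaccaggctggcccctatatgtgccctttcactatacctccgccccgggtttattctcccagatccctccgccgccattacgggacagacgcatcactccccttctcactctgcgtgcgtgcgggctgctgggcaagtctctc
The Sgk1 window held 3 such hexamers, and the middle and last of them form the complete element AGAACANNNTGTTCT, which begins 189 bases before the start. That element, which reads the same on both strands, was found in 3 of all 32851 promoter windows, 0.00913%. The single hexamer, AGAACA on either strand and including those inside the complete element, was found in 18.97% of windows. Among 16 windows of 7 members, 4 held the hexamer, 3 of Sgk1 and the Tsc22d3 window above. The windows of Fkbp5, Esr1, Pgr, Nr3c2 and Greb1 held none. The oestrogen element GGTCANNNTGACC was in 0 of the 16 windows and in 0.0700% of all windows, and its GGTCA pentamer on either strand was in 11 of 16 windows and in 40.5% of all. From a list of 30 other glucocorticoid target genes, described further on, 27 had windows counted here, whatever their signal. These were chosen apart from the 27 of that list that were tested. Among their 32 windows, 4 held the hexamer and 0 the complete element. A match describes the letters of a window and is not a measured binding site. Zbtb16 and Nr3c1 are not among the 7 members counted here, so nothing is stated about their promoters.

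The deposited values were MAS5 signals on a linear scale, with array medians from 99.3 to 111.0. The duct keratin Krt19 was present in all tumours, with signals from 6801 to 11061, and all 10 ductal epithelial markers lay above the level filter. The number of arrays limits the precision. Genes reaching the array median on at least 3 of 6 arrays were tested, on log2(signal + 16), so differences of dim genes are understated. Of 11623 genes tested with limma, 0 had a Benjamini-Hochberg adjusted p under 0.05 (0%), and 264 (2.27%) had an unadjusted p under 0.05. The lowest adjusted p of any gene was 0.9998. At the level of single probe sets 22826 were tested, with 0 past the adjusted threshold (0%) and 550 (2.41%) at an unadjusted p under 0.05. Tumours of bulk tissue hold several cell types, and a lower signal from fewer cells of a type cannot be told apart from less RNA per cell.

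Of the 9 genes, Esr1, Nr3c1, Nr3c2, Fkbp5, Tsc22d3 and Sgk1 passed the level filter, and Pgr, Greb1 and Zbtb16 did not. None of the 6 tested members was past the adjusted or the unadjusted threshold, and their lactation and control values overlapped in 6 of 6, beside 6.90% of all tested genes with groups that did not overlap (3.19% with lactation lower). The median log2 difference, lactation minus control, was 0.03 over the 4 receptors and -0.09 over the 5 target genes, each gene taken by its probe set of highest mean and untested genes included. Over all genes tested the median difference was -0.01 and the median absolute difference 0.09. Leaving out lactation replicate 2 gave a receptor median of -0.078, leaving out control replicate 1 gave -0.0082, and median-centred arrays gave -0.012. The target median was 0.04 without lactation replicate 3 and 0.11 without control replicate 2. The sign of both medians thus turned when single arrays were left out.

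**Figure D1:**
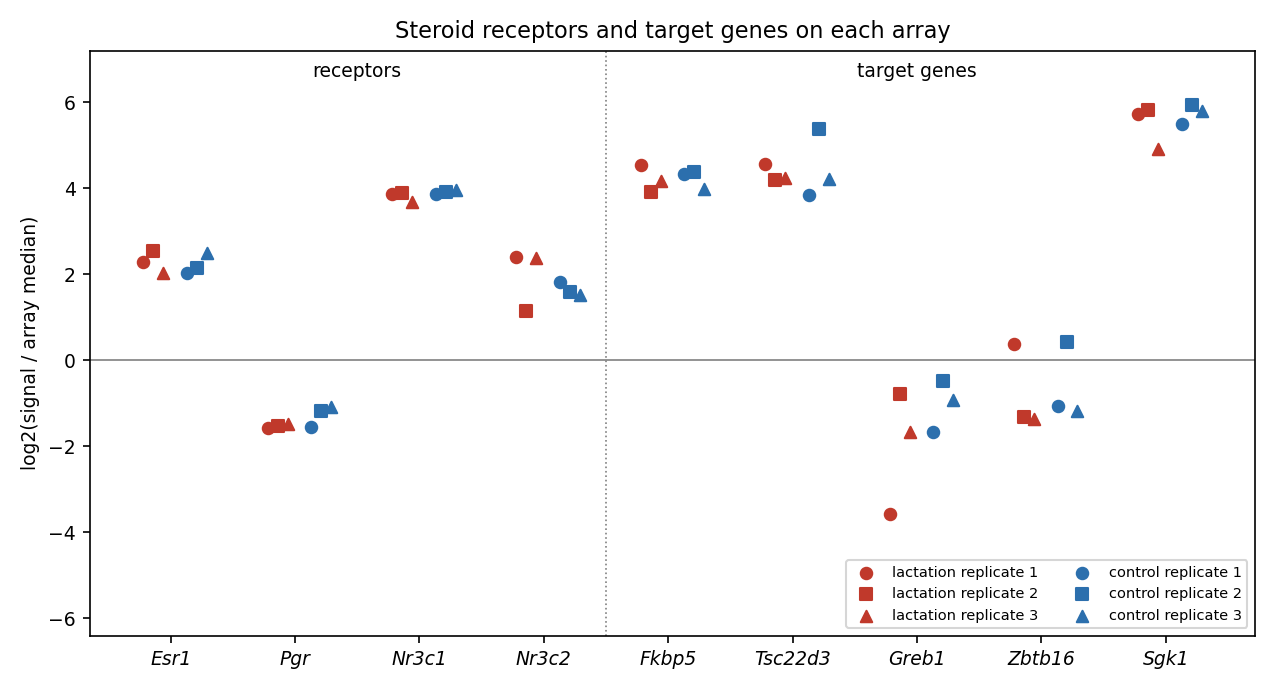
Level of each gene's probe set of highest mean on the 6 arrays, as log2 of the signal over the array median, with red for lactation, blue for control and a marker shape for each replicate number. Pgr and Greb1 lie below the median line on every array, Zbtb16 lies above it on lactation replicate 1 and control replicate 2, and the Tsc22d3 value of control replicate 2 stands above the other 5.

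Nr3c1, the glucocorticoid receptor, was well above the array median and varied little between tumours. Its brightest probe set measured 1462, 1655 and 1391 in lactation and 1540.1, 1557 and 1547 in controls (means 1502 ± 137 and 1548 ± 8.75, SD, n = 3). The lactation values lay on both sides of the controls, which were within a narrow range. The log2 difference was -0.05 (standard error 0.09, 95% interval -0.26 to 0.17, limma adjusted p = 0.9998), and leaving out lactation replicate 3 gave 0.0065. Its SD over the 6 arrays, 0.085 on the log2 scale, was larger than that of 13.4% of tested genes. Nr3c1 has 6 probe sets, 4 of which were tested. Probe set 1421867_at had a difference of 0.02 and probe set 1457635_s_at of 0.12, both with overlapping groups. Probe set 1421866_at, of the same reference transcript as the brightest, measured 166, 211 and 167 in lactation and 234, 235 and 224 in controls. All 3 lactation values lay below all 3 controls, and the difference was -0.33 (standard error 0.15, unadjusted p = 0.057, limma adjusted p over probe sets 0.9997). It was the only one of 13 tested member probe sets with groups that did not overlap, beside 6.99% of all tested probe sets in either direction and 3.22% with lactation lower. The remaining pair, 1453860_s_at and 1431378_at, lay below the filter.

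Nr3c2, the mineralocorticoid receptor, had the largest difference of the tested members and also the widest spread of the receptors that were tested. Its only probe set measured 533, 245 and 562 in lactation and 375, 310.1 and 285 in controls (means 447 ± 176 and 323 ± 46.3, SD, n = 3). Lactation replicates 1 and 3 were above every control and lactation replicate 2 was below every control. The log2 difference was 0.37 (standard error 0.31, 95% interval -0.36 to 1.10, limma adjusted p = 0.9998). Leaving out lactation replicate 2 gave 0.74, lactation replicate 1 gave 0.20 and lactation replicate 3 gave 0.17. The summed signal of the ductal epithelial markers was also highest on lactation replicates 1 and 3. Control replicate 1 came close to lactation replicate 1. The sum was lowest on control replicate 2, while Nr3c2 was lowest on lactation replicate 2. Of the 10 ductal markers, 9 had their highest value on lactation replicate 3 and 0 on lactation replicate 1. Their summed signal was 89088, 75174 and 105612 in lactation and 88579, 70277 and 80256 in controls, and 10 of the 10 had a positive difference, with a median of 0.24. Without lactation replicate 3 that was 6 of 10 with a median of 0.098, and without control replicate 2 it was 7 of 10 with a median of 0.13. Without lactation replicate 2 the median was 0.45 and without control replicate 1 it was 0.37. Their part in the Nr3c2 result was not tested.

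Esr1, oestrogen receptor alpha, lay above the array median by its brightest probe set, with a mean of 2.26 on the log2 scale. That probe set measured 495, 649.7 and 445 in lactation and 430.5, 462 and 564 in controls (means 530.0 ± 107 and 486 ± 69.7, SD, n = 3). Lactation replicate 2 had the highest value and the groups overlapped. The difference was 0.11 (standard error 0.17, 95% interval -0.29 to 0.52, limma adjusted p = 0.9998), and leaving out lactation replicate 2 gave -0.038. Probe set 1435663_at also had its highest signal on lactation replicate 2, 387 beside 145 to 251 on the other arrays, with a difference of 0.22 that was -0.10 without that array. The third, 1421244_at, lay below the median on all arrays and had its highest signal, 82.3, on lactation replicate 2 too. The milk protein gene Csn2 was listed at 333 on lactation replicate 2 and from 2.00 to 27.0 on the other 5 arrays. The summed signal of the 10 mammary gland markers was 3166, 5461 and 4155 in lactation and 3603, 3179 and 3103 in controls, with 2 of the 10 above the level filter. Their part in the Esr1 values was not tested.

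Pgr, the progesterone receptor and itself a target of oestrogen, lay below the array median on all 6 arrays by each of its 3 probe sets. The brightest measured 34.0, 38.4 and 38.8 in lactation and 36.1, 45.6 and 46.7 in controls. The groups overlapped, and the difference of -0.14 was not tested. The other probe sets measured from 2.19 to 22.2 and from 1.03 to 3.42. Detection calls were not used here, so whether such signals exceed background is not known.

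**Figure D2:**
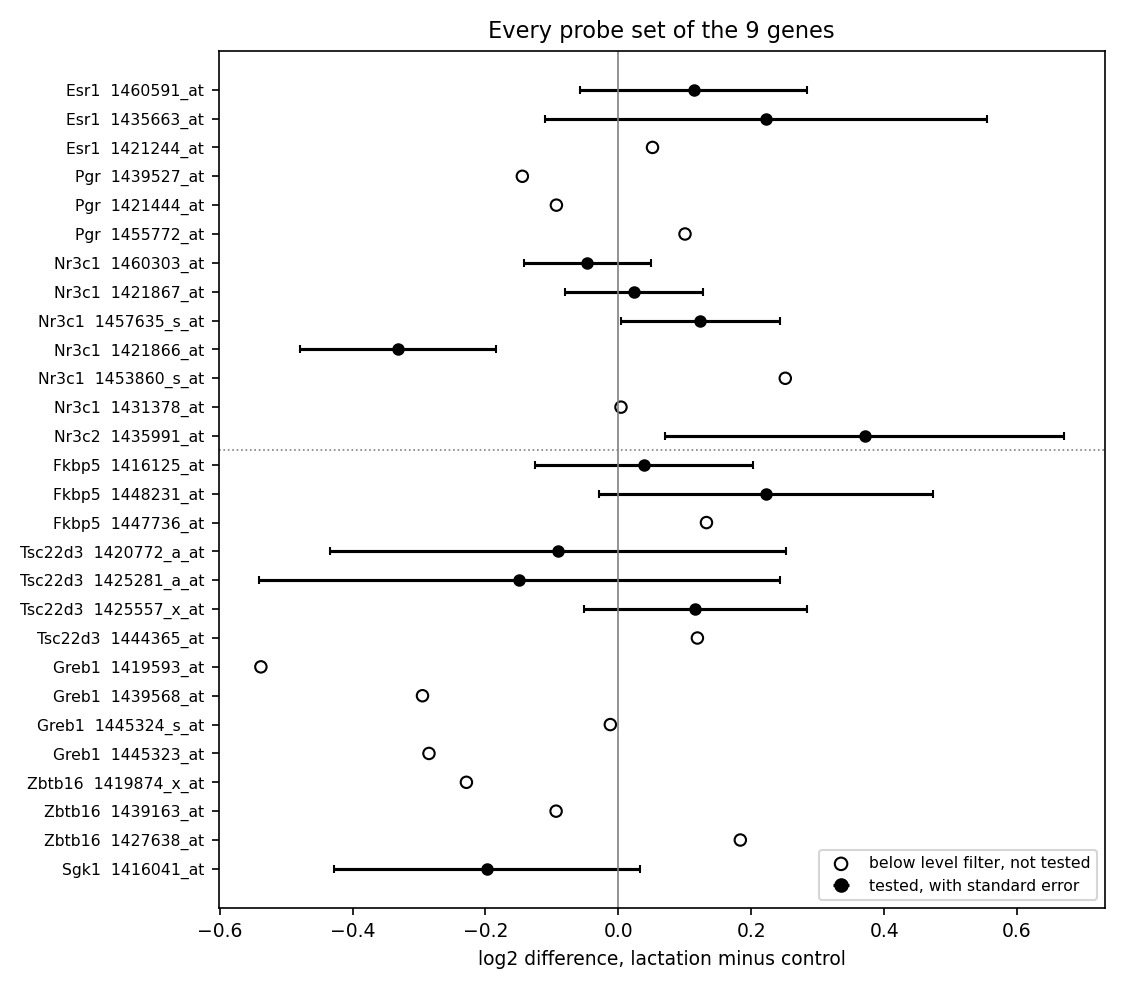
Log2 difference, lactation minus control, of all 28 probe sets of the 9 genes, receptors above the dotted line. Filled points were tested and carry the standard error of the limma fit over probe sets, and open points lay below the level filter. The probe sets of a gene lie on both sides of 0 for Pgr, Nr3c1, Tsc22d3 and Zbtb16.

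Tsc22d3, which encodes the glucocorticoid-induced leucine zipper protein, an anti-inflammatory factor, was highest in a control tumour. Its brightest probe set, 1420772_a_at, measured 2401, 2039 and 2051 in lactation and 1521, 4287 and 1859.7 in controls (means 2163 ± 206 and 2556 ± 1509, SD, n = 3). Control replicate 2 was far above the other 5 arrays, and the other controls lay below all lactation values. The log2 difference was -0.09 (standard error 0.35, 95% interval -0.93 to 0.74, limma adjusted p = 0.9998), and it was 0.36 without control replicate 2. Probe set 1425281_a_at gave the same order at the top, with 1289.8, 1061 and 1088 in lactation and 884, 2624 and 875 in controls. Probe set 1425557_x_at did not, with 293, 225 and 309.6 in lactation and 261, 279.8 and 217 in controls, although it was above the median on all arrays. The suffix x marks a probe set that may share sequence with other transcripts. The dim probe set 1444365_at again had its highest signal, 65.0, on control replicate 2.

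Zbtb16, a zinc finger transcription factor also called PLZF, was above the array median in a tumour of each group and below it in the other 4. Probe set 1439163_at measured 130.1, 44.4 and 42.0 in lactation and 50.6, 139 and 44.1 in controls. Probe set 1419874_x_at gave the same pair of high arrays, with 163, 24.1 and 13.9 in lactation and 35.0, 229.96 and 11.5 in controls. It too carries the suffix x, so it may share sequence with other transcripts. Probe set 1427638_at gave 48.4, 40.4 and 50.7 against 51.1, 28.0 and 39.9, below the median on all arrays and lowest on control replicate 2. The differences were -0.09, -0.23 and 0.18 and were not tested, and the first was 0.34 without control replicate 2. Skeletal muscle markers were high on the same arrays. The summed signal of the 10 muscle markers was 85054, 28805 and 15217 in lactation and 34563, 84282 and 11105 in controls, and Ckm, the creatine kinase of muscle, measured 10528 on lactation replicate 1 and 9611 on control replicate 2, beside 803 to 2836 on the other 4. With both of these arrays left out, a step chosen after seeing the data, the Zbtb16 difference on 1439163_at was -0.097, that of Tsc22d3 was 0.28 and the target median was -0.0087. The part of muscle in the Zbtb16 values was not tested.

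Control replicate 2 also had high values of other cell type markers, which stand beside the Tsc22d3 value. The summed signal of the 8 named T cell markers was 3348 there and 1755 to 2435 on the other arrays, and 5 of the 7 tested ones had their highest value there. The summed macrophage signal was 55908 there beside 37589 to 52726, that of the mast cell markers 9466 beside 2512 to 7624, and that of the 8 named adipocyte markers 8174 beside 3622 to 6351. Their part in the Tsc22d3 result was not tested.

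**Figure D3:**
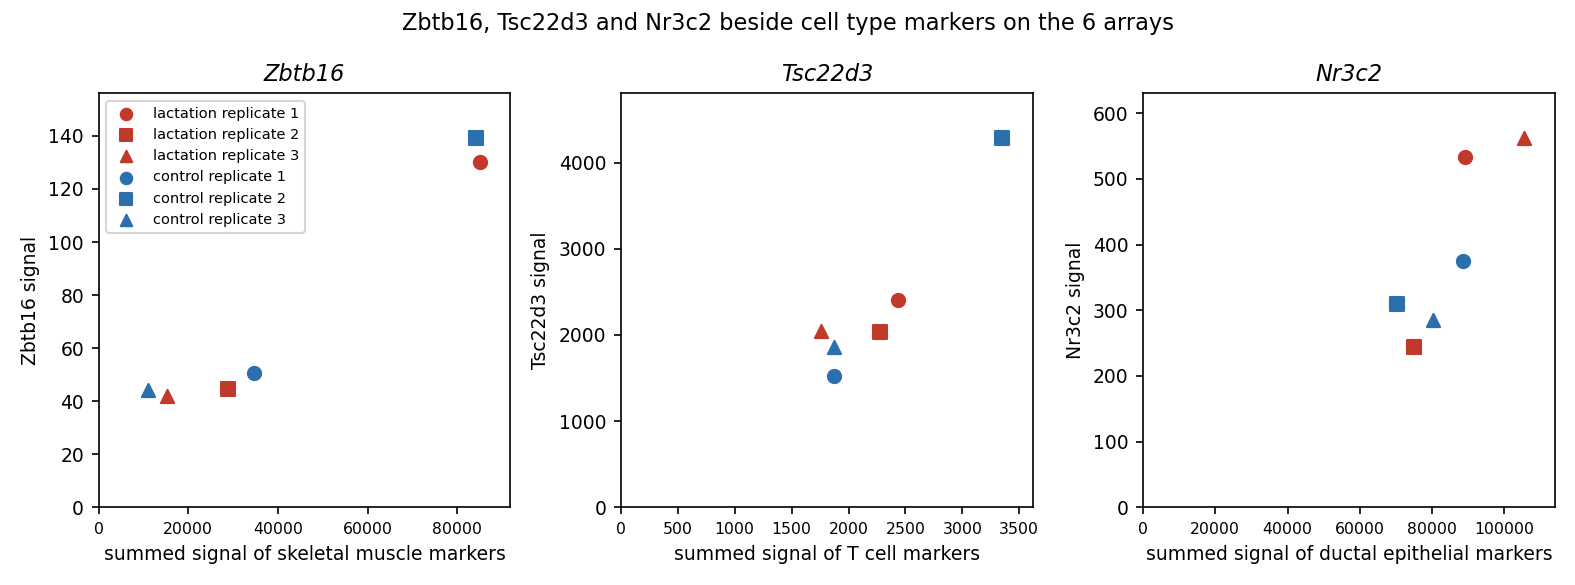
Signals of Zbtb16 (1439163_at), Tsc22d3 (1420772_a_at) and Nr3c2 on the 6 arrays, each against the summed signal of a marker list on linear axes, with red for lactation and blue for control. Lactation replicate 1 and control replicate 2 stand together at the upper right of the Zbtb16 panel, control replicate 2 stands alone in the Tsc22d3 panel, and lactation replicates 1 and 3 are highest in the Nr3c2 panel.

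Fkbp5, a co-chaperone that lowers the hormone affinity of the glucocorticoid receptor and is induced by it, was well above the median on all arrays. Its brightest probe set measured 2349.6, 1678 and 1965 in lactation and 2120.2, 2141 and 1574 in controls (means 1997 ± 337 and 1945 ± 322, SD, n = 3). The ranges of the groups overlapped. The difference was 0.04 (standard error 0.17, 95% interval -0.35 to 0.43, limma adjusted p = 0.9998). Leaving out lactation replicate 1 gave -0.084, leaving out control replicate 3 gave -0.11 and median-centred arrays gave -0.0074. Probe set 1448231_at measured 909, 495 and 769 in lactation and 509, 792 and 535 in controls, a difference of 0.22 with a standard error of 0.25. On both probe sets control replicate 2 lay within the range of the lactation values, unlike for Tsc22d3.

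Sgk1, a kinase that promotes sodium uptake and cell survival, was far above the median on all arrays. Its probe set measured 5369, 6279.95 and 3268 in lactation and 4794, 6321 and 5492 in controls (means 4972 ± 1545 and 5536 ± 765, SD, n = 3). Lactation replicate 3 was the lowest and the other 5 lay between 4794 and 6321. The difference was -0.20 (standard error 0.24, 95% interval -0.76 to 0.36, limma adjusted p = 0.9998), and leaving out lactation replicate 3 gave 0.078. Greb1, a cofactor of the oestrogen receptor, lay below the median on all arrays by all 4 probe sets. Its brightest measured 8.52, 64.4 and 34.3 in lactation and 33.2, 73.7 and 52.8 in controls, a difference of -0.54 that was not tested. With single arrays left out it lay between -0.94 (lactation replicate 2 removed) and -0.080 (lactation replicate 1 removed). Its second probe set, 1439568_at, also had its highest signals on lactation replicate 2 and control replicates 2 and 3, at 67.8, 83.5 and 65.6. Probe set 1445324_s_at instead had its lowest signals on lactation replicate 2 and control replicate 1, at 9.95 and 10.6.

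Other genes that glucocorticoids are known to induce were often highest in the same control tumour as Tsc22d3. Of 30 genes 27 were tested, 0 passed in either direction, and 18 had a positive difference, beside 48.3% of all tested genes. That count was not stable: dropping control replicate 1 left 12 positive, and dropping control replicate 2 left 20. Only Mt1, named for this reason, had groups that did not overlap, 1 of the 27 beside 6.90% of all tested genes. It measured 10882, 12866 and 10740 in lactation and 9892, 10710 and 10353 in controls, a difference of 0.15 (standard error 0.09, limma adjusted p = 0.9998). Over the 27 genes the median was 0.015, and it ranged from -0.024 without lactation replicate 1 to 0.12 without control replicate 2. Control replicate 2 had the highest value for 13 of the 27, beside 14.5% of all tested genes. The other arrays had the highest value for 1 to 4 of the 27. Control replicate 2 was also highest for 7 of 10 tested mast cell markers and 5 of 7 T cell markers. It was highest for 4 of 10 macrophage, 3 of 5 adipocyte, 1 of 10 fibroblast and 0 of 10 ductal markers. The part of these cell types in the 13 was not tested. Among these 13 were Pdk4, an inhibitor of pyruvate use, Cd163, the haemoglobin scavenger receptor of macrophages, and the clock gene Per1, with Per1, Cd163 and Glul (in the colour map) named after their values were seen. Per1 measured 470.01, 521 and 447 in lactation and 321, 746 and 446 in controls. Control replicate 2 was above all others and control replicate 1 below all others. Pdk4, which muscle also expresses, measured 2169.8, 249 and 492 in lactation and 518, 2868 and 72.5 in controls, with its highest values on the same arrays as Zbtb16. The log2 differences were 0.37 for Pdk4, 0.32 for Il1r2, a decoy receptor for interleukin 1, and -0.31 for Mertk, a receptor for dying cells.

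**Figure D4:**
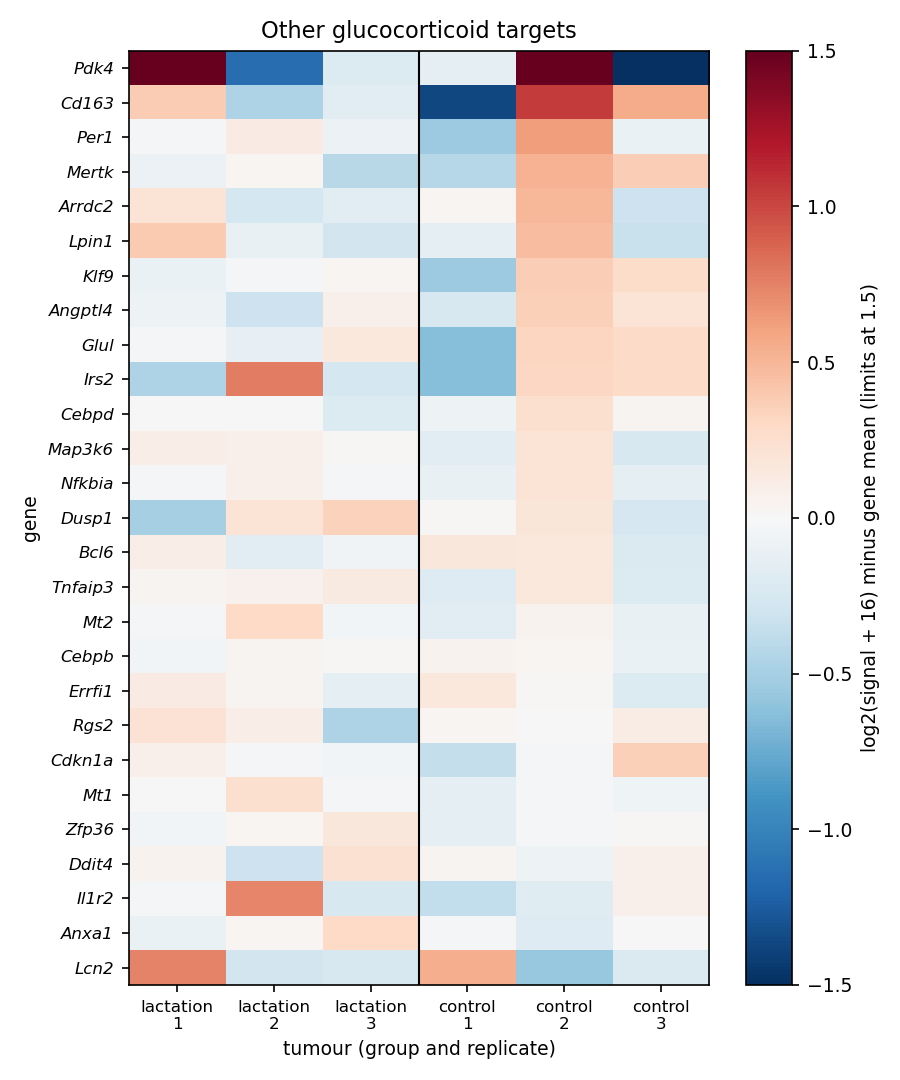
Colour map of 27 other glucocorticoid targets by tumour, as log2(signal + 16) minus the gene's mean over the 6 arrays, with genes ordered by their value on control replicate 2 and colours limited at 1.5. Control replicate 2 is the highest array for 13 genes and control replicate 1 is low for Cd163, Per1 and Glul.

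Among enzymes that make and remove active steroids no gene passed the adjusted threshold. Of 14 named genes 7 were tested, 2 with a positive and 5 with a negative difference, and the median was -0.10. Hsd11b1, which regenerates active glucocorticoid within tissues, measured 726, 773 and 692 in lactation and 1594, 937 and 798 in controls. All lactation values lay below all controls, and the difference was -0.53 (standard error 0.24, unadjusted p = 0.063, limma adjusted p = 0.9998). Such groups without overlap occurred in 1 of the 7 tested genes, beside 6.90% of all tested genes (3.19% with lactation lower). The highest Hsd11b1 value, 1594 on control replicate 1, was far above all others. Macrophages express this gene too, and 9 of 10 macrophage markers had a negative difference, with a median of -0.26, as had 10 of 10 mast cell markers, with a median of -1.09. Without lactation replicate 3 the macrophage median was -0.081, with 3 of 10 positive. The summed macrophage signal was 50815, 50441 and 37589 in lactation and 48946, 55908 and 52726 in controls. Control replicate 1, with the highest Hsd11b1 value, thus had the lowest macrophage sum of the controls. The mast cell sum was 3516, 3377 and 2512 in lactation and 7624, 9466 and 5446 in controls. The part of either cell type in the Hsd11b1 values was not tested. Hsd11b2, which inactivates glucocorticoids, had a difference of 0.26 (standard error 0.44) with overlapping groups. Akr1c18, which inactivates progesterone, measured 82.8, 563 and 737 in lactation and 444, 647 and 1440.1 in controls, a difference of -1.12 with a standard error of 0.79. The groups overlapped, and lactation replicate 1 was far below all other arrays and the only array where the gene lay below the median.

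Genes listed as sodium transport targets of the mineralocorticoid receptor, known from kidney and colon, had a median difference of 0.39 over the 5 tested of 9 named. Of these 5, 3 had a positive and 2 a negative difference, and 0 passed the adjusted threshold. Nedd4l, a ubiquitin ligase that Sgk1 phosphorylates and not a transporter, measured 1028, 956 and 1220.3 in lactation and 980.4, 809.5 and 666 in controls. Its difference of 0.39 (standard error 0.16, unadjusted p = 0.049, limma adjusted p = 0.9998) is the list's median. It was the only gene of the 5 with an unadjusted limma p under 0.05, beside 2.27% of all tested genes. The groups overlapped. The sodium channel subunit Scnn1a and the sodium pump subunit Atp1b1 had differences of 0.50 (standard error 0.24) and 0.42 (standard error 0.32). The list's median was 0.12 without control replicate 3, the array with the lowest Nedd4l, Scnn1a and Atp1b1 values, and 0.20 without lactation replicate 3. The ductal markers, with their median of 0.24, stand beside these epithelial genes, and their part was not tested.

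Oestrogen and progesterone targets had a median of -0.01 over 14 tested of 19 named genes, 6 positive and 8 negative, and 0 passed. Differences were -0.42 for the small heat shock protein gene Hspb8, -0.40 for Tnfsf11, which encodes RANK ligand, and 0.38 for the trefoil factor Tff3, with standard errors of 0.47, 0.29 and 0.78. Among other hormone receptors 4 of 6 were tested and 3 had a negative difference, of -0.39 for the membrane oestrogen receptor Gper1, -0.17 for Pgrmc1 and -0.05 for Pgrmc2. Chaperones that hold steroid receptors ready for hormone had a median of -0.01 over 11 genes, with differences of 0.29 for Hspa4, -0.18 for Dnaja1 and -0.09 for Dnajb1. Coregulators had a median of -0.01 over 10 genes. The coactivators Ncoa3 and Crebbp had lactation values below all controls, with differences of -0.21 and -0.11. So 2 of 10 coregulators had groups that did not overlap, beside 6.90% of all tested genes in either direction and 3.19% with lactation lower. Ppargc1a had a difference of 0.17. No gene of these lists passed the adjusted threshold.

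**Figure D5:**
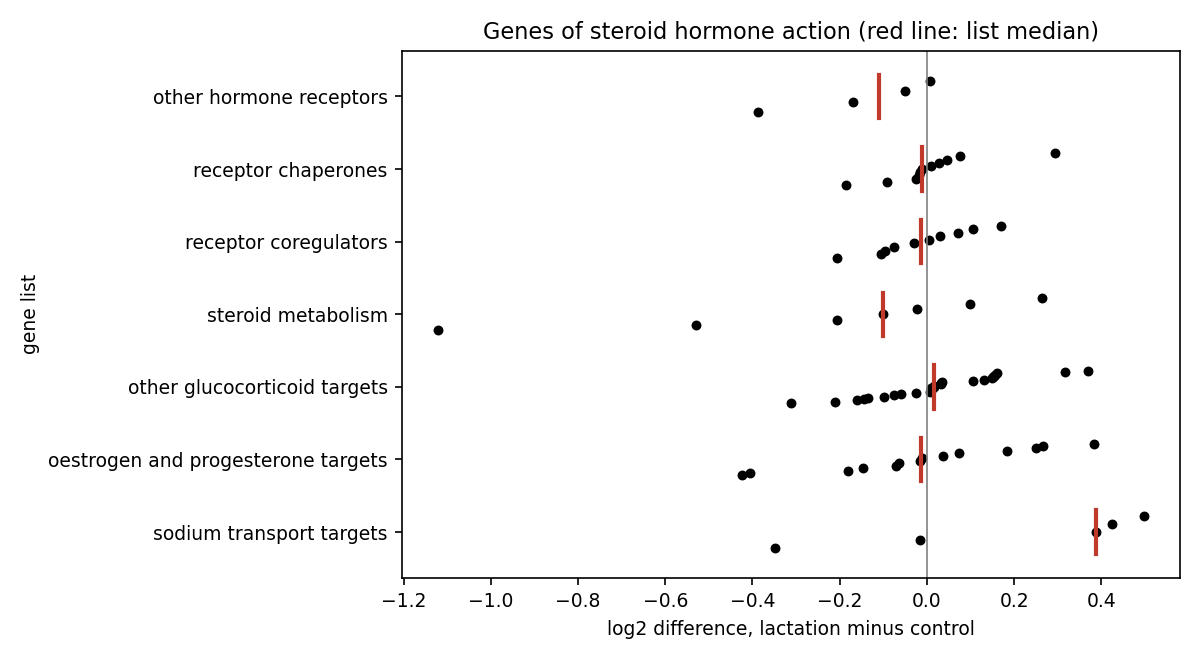
Log2 differences, lactation minus control, of the tested genes in 7 lists of steroid hormone action, a point for each gene, with a red line at the list's median. Medians lie between -0.11 and 0.02 for 6 lists and at 0.39 for the sodium transport targets.

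Genes whose values moved most like a member's over the 6 arrays were sought for the receptor and the target gene of widest spread among the members that passed the level filter, by the root mean square distance between log2 values centred on each gene. For Nr3c2, with an SD of 0.47, the nearest of the tested genes were 0610040J01Rik, Cfap69 and Mpzl2, at distances of 0.085, 0.091 and 0.096. Mpzl2, an epithelial adhesion protein, measured 2738, 1553 and 3113 in lactation and 2303, 1696 and 1720.05 in controls. For Tsc22d3, with an SD of 0.51, they were Pdcd1lg2, Ctla4 and Tnfrsf18, at distances of 0.147, 0.151 and 0.165. Ctla4, an inhibitory receptor of T cells, measured 243, 195 and 149 in lactation and 139.9, 448 and 161 in controls, with control replicate 2 the highest. These likenesses rest on 6 arrays and were picked from all tested genes.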

How the data were processed

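Total RNA of 6 tumours, 3 for each group, was labelled with biotin as cRNA and hybridised to 3' Affymetrix arrays, per the labels' protocols. The deposited table holds a linear intensity for each probe set, which MAS5 produced, as named in the submitters' processing notes, without detection calls. The intensity of each array had a mean of 500.0 after trimming 2% at each end, so arrays were already scaled. Genes were named by the platform annotation, and the gene level took no probe set with several symbols (932) or without a symbol (9211). Values were log2(signal + 16). A gene was its probe set of highest mean over the 6 arrays, kept in the alternatives other than the mean of probe sets, and a second fit used single probe sets. The groups were compared by limma 3.58.1 (R 4.3.3) with group as the only term and a variance trend over intensity, adjusted by Benjamini-Hochberg over all features tested, and the fit was tested on simulated data. Members and lists were chosen with earlier results of these data known. All members were named, with the 3 genes of largest absolute difference from each pathway list and 3 most alike genes for a receptor and a target. Lists are described by counts and medians. Marker lists of cell types enter as summed signals. Promoter windows were searched in Python 3.11.15, and figures drawn with matplotlib 3.10.9. Alternatives were other scalings, added constants of 1 and 64, other filters, the mean of probe sets, no trend, weights per array, a block for replicate number, and left-out arrays.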

Additional observations from a re-analysis of the deposited data

How the results depend on the processing

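The counts of genes and of probe sets past the adjusted threshold were 0 in every alternative run in limma, including those that left out arrays. The median log2 difference of the receptors was 0.03 and became -0.012 with median-centred arrays; with an array left out it ranged from -0.078 to 0.088. That of the target genes was -0.09, ranged from -0.30 to 0.11 with an array left out, and was -0.0087 with lactation replicate 1 and control replicate 2 both left out, an alternative added after seeing the data. In that alternative the differences were -0.0087 for Fkbp5, 0.28 for Tsc22d3, 0.13 for Greb1 and -0.097 for Zbtb16. The difference of Fkbp5 was 0.04 as reported, -0.0074 with centred arrays and -0.0014 with array weights, and averaging the probe sets of Nr3c1 gave 0.0041. With an array left out the differences ranged from -0.038 to 0.23 for Esr1, from -0.12 to 0.0065 for Nr3c1, from -0.11 to 0.16 for Fkbp5, from -0.39 to 0.36 for Tsc22d3, from -0.53 to 0.34 for Zbtb16 and from -0.39 to 0.078 for Sgk1. Apart from those with centred arrays, the cause of these reversals was not tested. Nr3c2 kept a positive difference and Pgr a negative one in all alternatives. Centring subtracts a constant from each array and so lowered the difference of every gene by the same amount. It moved the median difference over all tested genes from -0.01 to -0.05.

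Replicate numbers did not pair the tumours: deviations of same-numbered tumours correlated at 0.14, -0.08 and 0.27, and lactation replicate 1 correlated best with control replicate 2, at 0.46. With the replicate number as a block, 0 genes and 0 probe sets passed, and the medians were 0.03 for the receptors and -0.09 for the target genes. Dim signals limit what can be said of Pgr, Greb1 and Zbtb16, and 3 tumours in each group limit the rest: over all tested genes the standard error had a median of 0.14.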
